A study of Mus musculus with 8 samples.

Results

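The Hox genes are protein-coding genes that lie in 4 clusters, Hoxa, Hoxb, Hoxc and Hoxd, and were followed here as a group, cluster by cluster. Members were all protein-coding genes of the deposited count table whose symbol is Hoxa, Hoxb, Hoxc or Hoxd followed by a number. The table held 38 of the 39 such genes in the GENCODE M21 annotation, among 39017 gene identifiers in all, and Hoxd4 was not analysed here. Hoxa had 11 members on chromosome 6, Hoxb 10 on chromosome 11, Hoxc 9 on chromosome 15 and Hoxd 8 on chromosome 2. An expression filter left 31 of the 38 for testing: 10 Hoxa, 9 Hoxb, 9 Hoxc and 3 Hoxd genes.

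Hox proteins are homeodomain transcription factors that give cells their position along the head to tail axis and along the limbs. Genes at one end of a cluster, with low numbers, act towards the head, and genes with high numbers act in the trunk, the tail and the distal limb. Fibroblasts keep the set of Hox genes of the body region they came from through many divisions in culture, with Polycomb proteins holding the silent members shut and Trithorax proteins keeping the active members open.

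The cells were mouse embryonic fibroblasts from E13.5 embryos, either control or knocked out for Mettl3, the enzyme that places N6-methyladenosine (m6A) on mRNA. For the knockout, 500 nM 4-hydroxytamoxifen given for 48 h switched on Cre recombinase, and loss of the protein was examined after 7 days, with harvest a day later. Each genotype was sampled as poly(A) RNA of whole unstressed cells ("total") and as poly(A) RNA of a stress granule fraction, obtained by centrifugation after 30 min of 500 µM sodium arsenite ("granule"). This gave 4 groups of 2 biological replicates, 8 libraries in all. The sources used here do not say what drives the Cre recombinase, whether the controls received 4-hydroxytamoxifen, from how many embryos or which body part the cells came, or whether replicates were separate cultures, so p-values measure the spread between these libraries. Arsenite and fractionation came together, so a granule to total difference combines both.

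Total counts ranged from 67257220 to 123508539 per library. Mettl3 stood at 25.4 and 24.9 CPM (counts scaled to library size) in the control total libraries and at 6.005 and 7.35 in the knockout total libraries. In the granule libraries it was at 15.7 and 15.4 CPM in control and at 5.56 and 6.38 in knockout cells. Replicate 1 of the knockout total group stood apart: its log2 ratio to replicate 2 had a median size of 0.813, taken over the 10261 genes averaging 5 CPM or more, against 0.101 to 0.312 in the other 3 groups. Of 10 fibroblast markers, 8 were at 1 FPKM or more in every library, while Pdgfra lay between 0.14 and 0.35 FPKM. Markers of other cell types were also present: the 6 epithelial markers summed to 225 and 295 FPKM in control total, to 96.4 and 107 in knockout total and to between 400.0 and 589 in the granule libraries, mostly from Krt18 and Krt14, with Epcam and Cdh1 below 1. The 6 blood markers summed to between 37.2 and 94.9 FPKM, led by the globins Hbb-bs and Hba-a1, and the 6 neural markers to between 33.9 and 105, led by Nes. No marker of these lists was at 0 in every library, and their part in the results on Hox genes was not tested. In whole cultures, fewer cells of a type and less RNA per cell cannot be told apart.

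Levels of different genes are given as FPKM: counts scaled to a kilobase of annotated exon and to library size, the latter adjusted by the trimmed mean of M-values (TMM). A member is called on in a library at 1 FPKM or more, and on in a group when both libraries are.

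Members of the same number in different clusters descend from one ancestral gene, and the contrast between the clusters can be seen at such pairs. RefSeq promoter entries were held for 22 Hox genes, 24 windows in all, on the GRCm38.p6 assembly. The 250 bases before the start site of an active and a silent member of the same number are shown for numbers 8 and 10, since each of these numbers has an entry for an active and for a silent member. Capitals mark each CG dinucleotide. The windows are chr11:96281655-96281904 (plus strand) for Hoxb8, chr2:74704365-74704614 (plus strand) for Hoxd8, chr6:52234940-52235189 (minus strand, the inner of 2 start sites) for Hoxa10 and chr2:74691641-74691890 (plus strand) for Hoxd10.
Hoxb8: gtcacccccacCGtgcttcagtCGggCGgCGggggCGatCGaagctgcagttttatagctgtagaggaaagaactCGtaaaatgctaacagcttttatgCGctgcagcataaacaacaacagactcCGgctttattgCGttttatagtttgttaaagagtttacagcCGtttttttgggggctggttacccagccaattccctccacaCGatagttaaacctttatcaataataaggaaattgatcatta
Hoxd8: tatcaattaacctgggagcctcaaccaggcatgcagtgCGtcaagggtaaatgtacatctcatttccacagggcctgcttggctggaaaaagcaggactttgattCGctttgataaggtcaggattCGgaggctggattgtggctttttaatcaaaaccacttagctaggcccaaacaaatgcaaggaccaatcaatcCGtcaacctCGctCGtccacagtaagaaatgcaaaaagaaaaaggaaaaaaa
Hoxa10: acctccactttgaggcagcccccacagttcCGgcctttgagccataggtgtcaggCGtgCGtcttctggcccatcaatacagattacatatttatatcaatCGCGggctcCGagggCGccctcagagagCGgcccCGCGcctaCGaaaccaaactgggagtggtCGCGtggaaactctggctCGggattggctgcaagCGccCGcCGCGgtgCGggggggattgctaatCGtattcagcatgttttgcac
Hoxd10: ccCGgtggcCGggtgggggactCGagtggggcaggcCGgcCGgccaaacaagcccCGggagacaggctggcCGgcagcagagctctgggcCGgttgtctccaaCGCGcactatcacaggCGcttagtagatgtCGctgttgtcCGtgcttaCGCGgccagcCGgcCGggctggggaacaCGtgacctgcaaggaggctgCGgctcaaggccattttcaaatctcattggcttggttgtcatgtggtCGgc
Hoxb8, on in every group, had 12 CG dinucleotides in its window and Hoxd8, off in every group, had 6. Hoxa10, on in 3 groups, and Hoxd10, off in every group, had 20 each in the windows shown. The window at the outer Hoxa10 start site had 7, and which of the 2 start sites was used in these cells was not tested. Over all 24 Hox windows the median was 12.5 CG dinucleotides, against 6 over 32851 promoters, and the 10 Hoxd windows had the same median of 12.5 as the 14 of the other clusters. The letters TTTATNG, a CDX-type motif searched on both strands, occurred 3 times in the Hoxb8 window and not in the other windows shown. Over all promoters, 9.81% held that motif at least once, and 2 of the 24 Hox windows did (8.33%).

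Most members had the same state, on or off, in all 4 groups, and the exceptions lay in Hoxa and Hoxc. In Hoxa, 2 of 11 members were on in every group and 4 were off in every group. Of 38 members, 15 were on in every group: Hoxa4 and Hoxa5, Hoxb4 to Hoxb9 and Hoxb13, and Hoxc6 and Hoxc9 to Hoxc13. Off in every group were 16, among them all 8 Hoxd genes, the low-numbered genes Hoxa3, Hoxb1, Hoxb2 and Hoxb3, Hoxa11, Hoxa13 and Hoxc5. The state depended on the group in 5 members: Hoxa6, Hoxa7, Hoxa10, Hoxc4 and Hoxc8. Hoxa2 and Hoxa9 passed 1 FPKM in a single library, replicate 1 of knockout total. Of the members on in every group, Hoxa4 lay nearest to the threshold, at a lowest value of 1.01 FPKM.

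**Figure D1:**
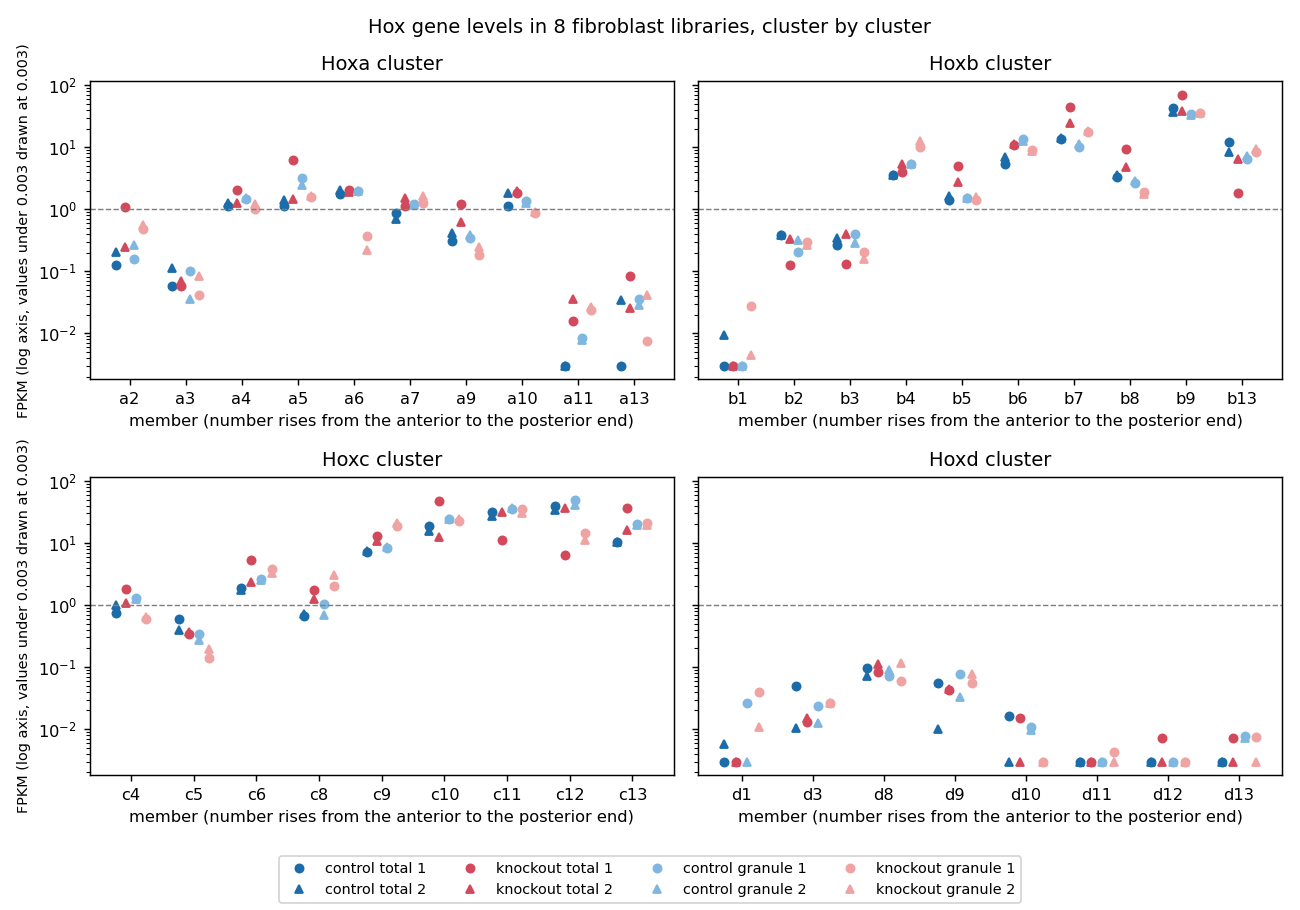
Level of 37 of the 38 Hox genes in the 8 libraries, in FPKM on a log axis, with 1 panel per cluster and members ordered by number; colours mark the group, circles replicate 1 and triangles replicate 2, and the dashed line marks 1 FPKM. Hoxb4 to Hoxb13 and Hoxc9 to Hoxc13 lie above the line in all libraries, and no Hoxd gene passes 0.115 FPKM.

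Hoxb and Hoxc genes made up nearly all Hox RNA. Of the summed FPKM of all members, Hoxc took between 43.3% and 62.5% over the 8 libraries, Hoxb between 32.8% and 51.04%, Hoxa between 2.99% and 5.65%, and Hoxd between 0.0529% and 0.109%. Members numbered 9 to 13, the posterior genes, held between 66.3% and 81.4% of that sum, and between 92.6% and 96.5% of the Hoxc sum. Hoxb7, Hoxb9, Hoxc10, Hoxc11 and Hoxc13 were among the 7 highest members in all 8 libraries. The ranking of the 38 members was close to the same in every library: Spearman's rho between libraries lay between 0.940 and 0.992 over the 28 pairs. That correlation is across genes within a cluster family whose large differences in level every library shares, so it describes the profile only.

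In the Hoxa cluster the active members were few and low. Hoxa5, a regulator of lung and of the neck and shoulder skeleton, had the highest mean: 1.11 and 1.41 FPKM in control total, 6.15 and 1.46 in knockout total, 3.16 and 2.46 in control granule, and 1.56 and 1.64 in knockout granule. Its 6.15 FPKM in replicate 1 of knockout total stood far above its replicate. Hoxa6 measured 1.77 and 2.07 FPKM in control total, 2.02 and 1.89 in knockout total, 1.98 and 1.94 in control granule, and 0.375 and 0.221 in knockout granule. The 6 libraries of the first 3 groups lay between 1.77 and 2.07 FPKM, and both knockout granule libraries lay far below them. Hoxa10, known from the uterus and the lumbar spine, was the highest-numbered active member, with 1.12 and 1.80 FPKM in control total, 1.85 and 1.95 in knockout total, 1.38 and 1.24 in control granule, and 0.877 and 0.918 in knockout granule. Its knockout granule values missed the threshold narrowly, so the highest number on in that group was Hoxa7. Hoxa11 and Hoxa13, genes of the limb and the urogenital tract, reached at most 0.0363 and 0.0836 FPKM. Between them Hoxa7, Hoxa9 and Hoxa4 ran from 0.179 to 2.07 FPKM over all libraries.

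The Hoxb cluster was on from Hoxb4 to its last member. Hoxb9, a gene of the thoracic region, was the strongest Hoxb gene in every library: 43.3 and 37.3 FPKM in control total, 70.4 and 38.6 in knockout total, 33.8 and 33.6 in control granule, and 35.2 and 35.6 in knockout granule. Apart from the 70.4 FPKM of knockout total replicate 1, its values spanned 33.6 to 43.3 FPKM. Hoxb7 measured 13.4 and 14.1 FPKM in control total, 44.9 and 24.8 in knockout total, 10.2 and 11.1 in control granule, and 17.8 and 18.2 in knockout granule. In both fractions the knockout libraries lay above both control libraries. Hoxb6 stood at 5.45 and 6.93 FPKM in control total, 11.0 and 11.3 in knockout total, 13.51 and 12.6 in control granule, and 9.14 and 8.58 in knockout granule. Control total was the lowest group for Hoxb6, and control granule the highest. Hoxb13, the last gene of the cluster and a gene of the tail and prostate, was on in all groups, at 12.1 and 8.44 FPKM in control total, 1.81 and 6.54 in knockout total, 6.50 and 7.11 in control granule, and 8.29 and 9.44 in knockout granule. Its lowest library was again knockout total replicate 1. Hoxb1, Hoxb2 and Hoxb3, the genes of the hindbrain end, stayed at or below 0.403 FPKM, and Hoxb2 and Hoxb3 share 27.3% and 52.9% of their exon length with the antisense gene Hoxb3os, whose reads may not have been told apart.

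In the Hoxc cluster each of Hoxc9 to Hoxc13 lay above each of Hoxc4 to Hoxc8 in every library. Hoxc11 measured 31.1 and 26.8 FPKM in control total, 11.3 and 31.1 in knockout total, 35.0 and 36.3 in control granule, and 35.3 and 30.4 in knockout granule. Hoxc12 measured 39.3 and 34.5 FPKM in control total, 6.39 and 37.1 in knockout total, 48.7 and 41.1 in control granule, and 14.7 and 11.3 in knockout granule. Both genes act in the hind part of the body, and both were at their lowest in knockout total replicate 1; Hoxc12 was also low in both knockout granule libraries. Hoxc10, a gene of the lumbar and hindlimb region, had 18.7 and 15.4 FPKM in control total, 47.6 and 12.4 in knockout total, 24.1 and 24.4 in control granule, and 22.5 and 24.4 in knockout granule. Hoxc13, required for hair and nails, was the highest-numbered active member, at 10.5 and 10.3 FPKM in control total, 36.9 and 16.1 in knockout total, 20.2 and 19.5 in control granule, and 21.2 and 19.8 in knockout granule. In both of these genes knockout total replicate 1 was the highest library instead of the lowest. At the anterior end, Hoxc5 stayed at or below 0.595 FPKM and Hoxc4 lay around the threshold, between 0.602 and 1.82.

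All 8 Hoxd members were off. Hoxd8, the highest, ranged from 0.0597 to 0.115 FPKM, on 18 to 31 counts per library. Hoxd9 ranged from 0.0101 to 0.0773 FPKM and Hoxd3 from 0.0103 to 0.0491. Hoxd10 to Hoxd13 and Hoxd1 had between 0 and 8 counts per library. In the library with the fewest counts, 3 counts correspond to 0.0446 CPM, so levels of these genes below that were not detectable there, a limit that covers counting error only. Of the 2 nearest coding neighbours, Mtx2 was at 6.99 to 15.4 FPKM and Evx2, a homeobox gene, was off at 0 to 0.00702. None of the 6 noncoding genes within the cluster passed the expression filter.

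Of the noncoding genes within the other clusters, 6 of 16 in Hoxa, 8 of 9 in Hoxb and 3 of 7 in Hoxc passed the expression filter. Hotair, a long noncoding RNA between Hoxc11 and Hoxc12, was at 1.13 and 1.51 FPKM in control total, 6.97 and 1.37 in knockout total, 3.52 and 3.15 in control granule, and 3.26 and 3.18 in knockout granule. It passed the adjusted threshold in none of the 6 comparisons below, with edgeR adjusted p between 0.175 and 0.970. The 2 noncoding genes called in any comparison are named here after their values were seen. Gm27477, at chr6:52162125-52162267 (GRCm38) within the Hoxa cluster, had 6.43 and 8.61 FPKM in knockout granule and 0.815 and 0.922 in control granule (log2 3.10, adjusted p = 0.0092), on at most 1.23 CPM. Gm15050, an antisense gene at chr6:52172881-52174059, was lower in granule than in total RNA of knockout cells (log2 −2.19, adjusted p = 0.036).

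Loss of Mettl3 in the granule fraction was tested with edgeR's quasi-likelihood test, with Benjamini-Hochberg adjustment over all 18952 genes tested, as were the other comparisons, and a gene is called at an adjusted p under 0.05. Of the 31 members tested, 3 were higher in knockout than in control, against 5.79% of all genes, and 1 was lower, against 3.66%. These 4 calls stood beside 9.45% of all genes called in either direction. Hoxa6 was 6.52-fold lower (log2 −2.71 ± 0.38 SE, adjusted p = 0.0088), on 36 and 19 counts in knockout against 178 and 193 in control. Hoxc8, a gene of the lower thorax, had 2.06 and 3.09 FPKM in knockout granule and 1.04 and 0.695 in control granule, and rose 2.97-fold (log2 1.57 ± 0.36 SE, adjusted p = 0.037). Hoxc9, its neighbour, had 18.5 and 21.3 FPKM against 8.16 and 8.66, and rose 2.37-fold (log2 1.24 ± 0.25 SE, adjusted p = 0.025). Hoxb4, known from blood stem cells and the neck vertebrae, had 10.1 and 12.6 FPKM against 5.36 and 5.40, and rose 2.11-fold (log2 1.08 ± 0.27 SE, adjusted p = 0.047). In each of these 4 the knockout and control libraries did not overlap, and none of them shares exon sequence with another annotated gene. Without regard to the test, 10 members lay higher in both knockout libraries and 12 lower, where 40.4% and 36.6% of all genes did. The median log2 fold change was −0.05 over the members and 0.08 over all genes. Hoxc12, lower in both knockout libraries, did not pass (log2 −1.79 ± 0.67 SE, adjusted p = 0.13).

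The granule calls rested on few libraries, as did those of all genes. With any one of the 4 granule libraries left out, no member was called, and between 0 and 0.433% of all genes were, in a fit where the lone library is assumed to vary like the other groups. Without either control total library only Hoxa6 was called, beside 3.67% and 4.13% of all genes. With any one of the 8 libraries left out the log2 fold changes ran from −3.19 to −2.39 for Hoxa6, 1.24 to 1.82 for Hoxc8, 1.13 to 1.29 for Hoxc9 and 0.90 to 1.18 for Hoxb4. With knockout total replicate 1 left out, which is not in this comparison but enters the shared estimate of spread, 13 members were called, 5 higher and 8 lower, the 4 above among them, while 39% of all genes were called. Hoxc12 was then among the 13, at −1.80 ± 0.19 SE on the log2 scale (adjusted p = 1.8e-05). With replicate 2 of that group left out, 14 were called, against 38.9% of all genes.

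**Figure D2:**
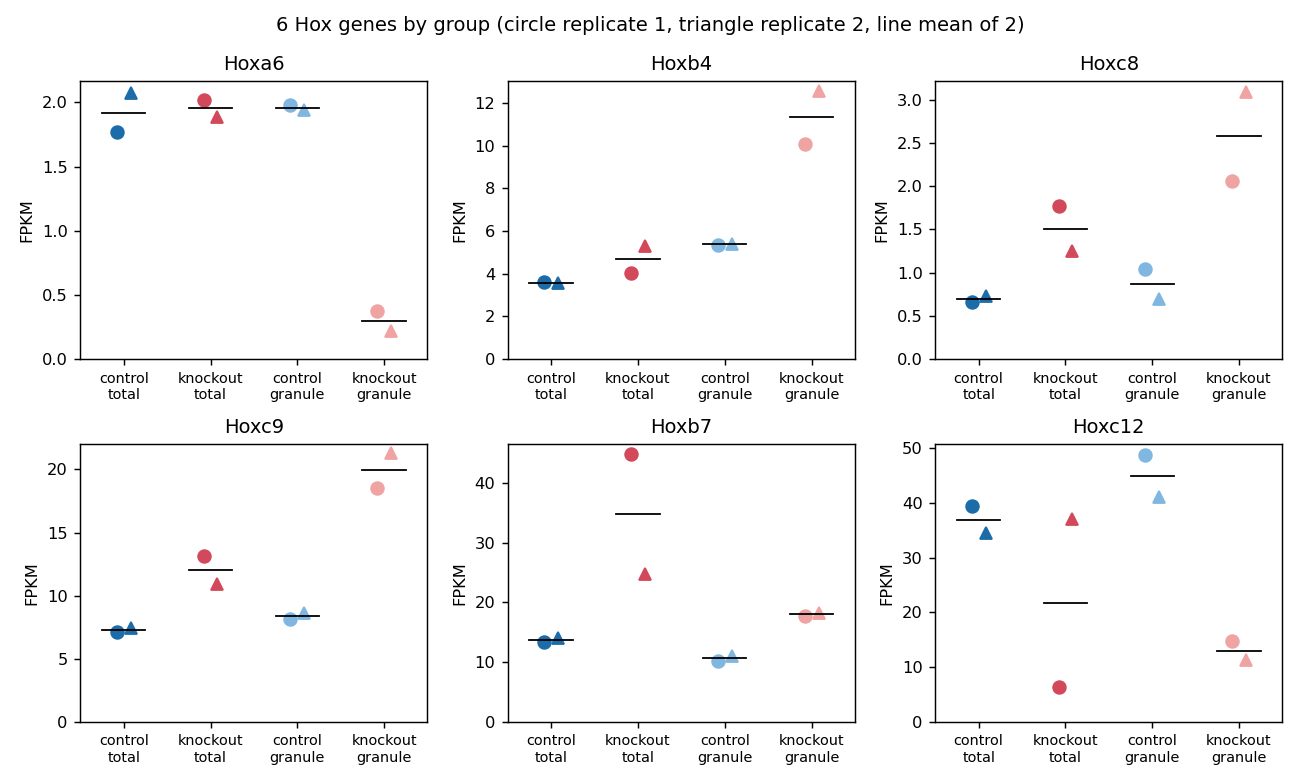
Level in FPKM of 6 Hox genes (Hoxa6, Hoxb4, Hoxc8, Hoxc9, Hoxb7 and Hoxc12) in the 4 groups, with circles for replicate 1, triangles for replicate 2 and a line at their mean. Hoxa6 falls from about 2 FPKM to 0.375 and 0.221 in knockout granule, Hoxb4, Hoxc8 and Hoxc9 are highest there, and the replicates of knockout total differ widely for Hoxb7 and Hoxc12.

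In total RNA no member was called between knockout and control, while 0.412% of all genes were. Of the 31, 13 had an unadjusted p under 0.05, against 24.8% of all genes, and DESeq2's Wald test called 11, against 13.2% of all genes. Both knockout libraries lay above both control libraries in 17 members and below them in 3, where 24.4% and 24.7% of all genes did so. The median log2 fold change was 0.48 over the members and 0.02 over all genes. Hoxb7 was 2.53-fold higher (log2 1.34 ± 0.32 SE, adjusted p = 0.12) and Hoxa5 3.01-fold (log2 1.59 ± 0.59 SE, adjusted p = 0.17), neither past the threshold. These values depended on the library that stands apart, more in size than in the number of members that were higher. The knockout total libraries were each set against the mean of the control total libraries, in log2 of FPKM plus 0.1. Replicate 1 was higher in 22 of the 31 members (median log2 0.66). Replicate 2 was higher in 23 (median log2 0.22). With knockout total replicate 1 left out, Hoxb7 (log2 0.85 ± 0.20 SE, adjusted p = 0.026) and Hoxb6 (log2 0.87 ± 0.22 SE, adjusted p = 0.036) were called, where 5.52% of all genes were. Hoxc12 moved from −0.76 to 0.01 on the log2 scale and Hoxb13 from −1.30 to −0.65. With replicate 2 left out in its place, 20 members were called, against 47.8% of all genes.

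**Figure D3:**
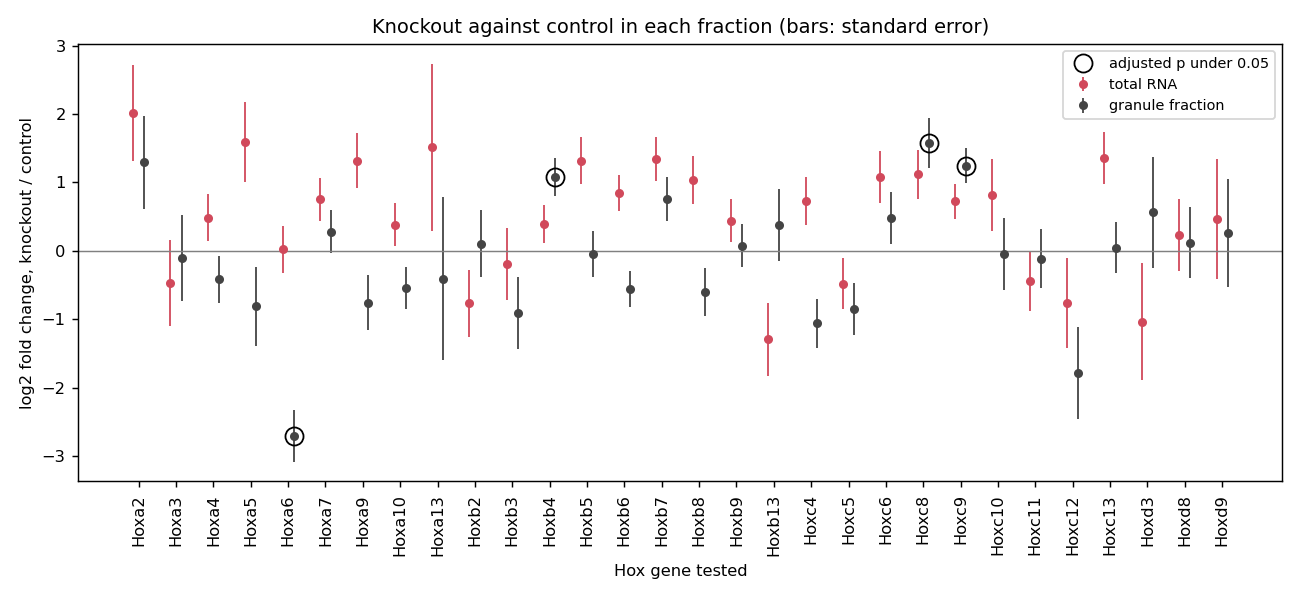
Log2 fold change of knockout over control for 30 of the 31 tested Hox genes, in total RNA (red) and in the granule fraction (grey), with bars of 1 standard error; rings mark an adjusted p under 0.05. Rings fall on Hoxa6, Hoxb4, Hoxc8 and Hoxc9 in the granule fraction and on no gene in total RNA.

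Averaged over both fractions, the knockout effect was called for 4 members, against 7.69% of all genes. Of these, 3 were higher, against 4.9% of all genes, and 1 was lower, against 2.79%. Hoxc8 (log2 1.34 ± 0.26 SE, adjusted p = 0.023), Hoxb7 (log2 1.05 ± 0.23 SE, adjusted p = 0.033) and Hoxc9 (log2 0.98 ± 0.18 SE, adjusted p = 0.019) were higher in knockout cells. Hoxa6 was lower (log2 −1.34 ± 0.25 SE, adjusted p = 0.021), while its values in total RNA overlapped between genotypes (log2 0.02). No member was called with any one control total, control granule or knockout granule library left out, where between 0.438% and 0.967% of all genes were; with any one of the 8 libraries left out the log2 fold change of Hoxc9 stayed between 0.91 and 1.07 and that of Hoxa6 between −1.55 and −1.18. Without knockout total replicate 1, 7 members were called, the 4 above among them, and 25.5% of all genes, and without replicate 2 of that group 18 members and 44.1% of all genes were.

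Between granule and total RNA of control cells, 1 member was called, against 10.1% of all genes, with 5.89% of all genes higher and 4.17% lower. Hoxb6 rose 2.11-fold in the granule fraction (log2 1.08 ± 0.26 SE, adjusted p = 0.040), and its 2 granule libraries lay above both total libraries. The granule libraries lay higher for 13 members and lower for 6, where 35.2% and 37.3% of all genes did so. The median log2 ratio was 0.28 over the members and −0.06 over all genes. Leaving out any one control library or either knockout granule library ended the Hoxb6 call, in fits that called between 0 and 2.02% of all genes. Without knockout total replicate 1, 7 members were called, against 40.6% of all genes, among them Hoxa5 (log2 1.16), Hoxc13 (log2 0.94) and Hoxb4 (log2 0.60), all higher, and Hoxb13 (log2 −0.58), lower. Without replicate 2 of that group, 8 were called, against 39.9% of all genes. None of the 6 epithelial markers was called in this comparison and 2 had a positive log2 ratio (median −0.25); their summed level was higher in the granule libraries through Krt18, at 467 and 492 FPKM against 229 and 140 (log2 1.38, adjusted p = 0.057).

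Between granule and total RNA of knockout cells, 7 members were called, against 17.6% of all genes. The granule level was higher for 1, against 9.17% of all genes, and lower for 6, against 8.47%. Both granule libraries lay above both total libraries in 6 members and below them in 11, where 31.5% and 26.5% of all genes did so. Hoxb4 was higher in the granule fraction (log2 1.28 ± 0.28 SE, adjusted p = 0.020), where its total libraries stood at 4.05 and 5.31 FPKM. Hoxa6 was lower (log2 −2.70 ± 0.38 SE, adjusted p = 0.0050). Hoxb8 had 9.50 and 4.82 FPKM in knockout total and 1.88 and 1.75 in knockout granule, beside 3.36 and 3.61 in control total and 2.68 and 2.83 in control granule, a log2 ratio in knockout cells of −1.98 ± 0.36 SE (adjusted p = 0.012). Its 2 replicates in knockout total differed by about as much as many members did between groups. Hoxa9 had 1.19 and 0.612 FPKM in knockout total and 0.179 and 0.246 in knockout granule, with control total at 0.311 and 0.414 and control granule at 0.337 and 0.384 (log2 −2.09 ± 0.41 SE in knockout cells, adjusted p = 0.016). Hoxb5 had 4.90 and 2.73 FPKM in knockout total and 1.39 and 1.55 in knockout granule, with control libraries between 1.41 and 1.65 (log2 −1.38 ± 0.34 SE, adjusted p = 0.031). Hoxa9 and Hoxb5 thus reached their highest values in knockout total replicate 1. Hoxc4 had 1.82 and 1.07 FPKM in knockout total and 0.602 and 0.634 in knockout granule, with 0.739 and 1.004 in control total and 1.32 and 1.26 in control granule (log2 −1.23 ± 0.35 SE, adjusted p = 0.049). Hoxa10 was the sixth lower member (log2 −1.08 ± 0.32 SE, adjusted p = 0.049). This comparison shares its granule libraries with the knockout comparison above, so Hoxa6 and Hoxb4 are not seen there independently.

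Knockout total replicate 1 enters this comparison directly. Without it, 12 members were called, against 34% of all genes, and 6 of the 7 calls above were among them. The call it decided was that of Hoxc4, whose log2 ratio became −0.80. Hoxc12, at −0.74 ± 0.66 SE with all libraries, became −1.52 ± 0.22 SE (adjusted p = 0.00018), and Hoxb8 became −1.42 ± 0.23 SE. Without replicate 2 of knockout total, 19 members were called, against 48.2% of all genes. Without knockout granule replicate 2 no member was called and without replicate 1 of that group 1 was, against 1.22% and 1.47% of all genes. Without control granule replicate 1 or 2 it was 3 each time, against 7.79% and 7.72%, and without control total replicate 1 it was 4, against 10.3%.

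An interaction term tested if knockout and control cells differed in their granule to total ratio. No member was called, against 0.517% of all genes (0.401% higher and 0.116% lower), and 8 of 31 had an unadjusted p under 0.05, against 25.8% of all genes. DESeq2's Wald test called 7, against 14.5% of all genes. Only Hoxa6 (log2 −2.73 ± 0.50 SE, adjusted p = 0.065) and Hoxb6 (log2 −1.40 ± 0.36 SE, adjusted p = 0.097) had an edgeR adjusted p under 0.1. Other members were larger in size than Hoxb6, such as Hoxa5 (log2 −2.40 ± 0.83 SE, adjusted p = 0.136) and Hoxa9 (log2 −2.08 ± 0.57 SE, adjusted p = 0.104). Without knockout total replicate 1, 7 members were called, 1 higher and 6 lower, against 18.6% of all genes, and without replicate 2 it was 19, against 46.4%. The 7 included Hoxa6 (log2 −2.69 ± 0.50 SE, adjusted p = 0.0038) and Hoxc12 (log2 −1.81 ± 0.29 SE, adjusted p = 0.0019).

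The library that stands apart did so among the Hox genes in step with their base composition. Ratios between replicates were taken after adding 0.1 FPKM to each value, which shrinks the ratios of low members. On that scale knockout total differed by more than 2-fold in 9 of the 31 members, from a log2 ratio of −2.52 (Hoxc12) to 2.001 (Hoxa5). No member differed by as much on that scale between replicates of the other 3 groups. Without the addition some low members also passed 2-fold, such as Hoxa13 in knockout total (3.32-fold) and Hoxd9 in control total (0.0551 and 0.0101 FPKM). Spearman's rho of the knockout total ratio, with the addition, and the GC content of the transcript was −0.52 over the 31 members. This describes the 2 knockout total libraries only. Hoxc12, with 62.3% GC, was the most GC-rich member tested, and Hoxa2 and Hoxa5, with 48.8% and 49.8%, were near the low end. Over all genes averaging 5 CPM or more, rho was −0.73 in knockout total and 0.76 in control total. With a smooth GC trend taken out of each library before the test, 2 members were called between knockout and control in total RNA, against 4.07% of all genes, and 5 in the granule fraction, against 24% of all genes.

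**Figure D4:**
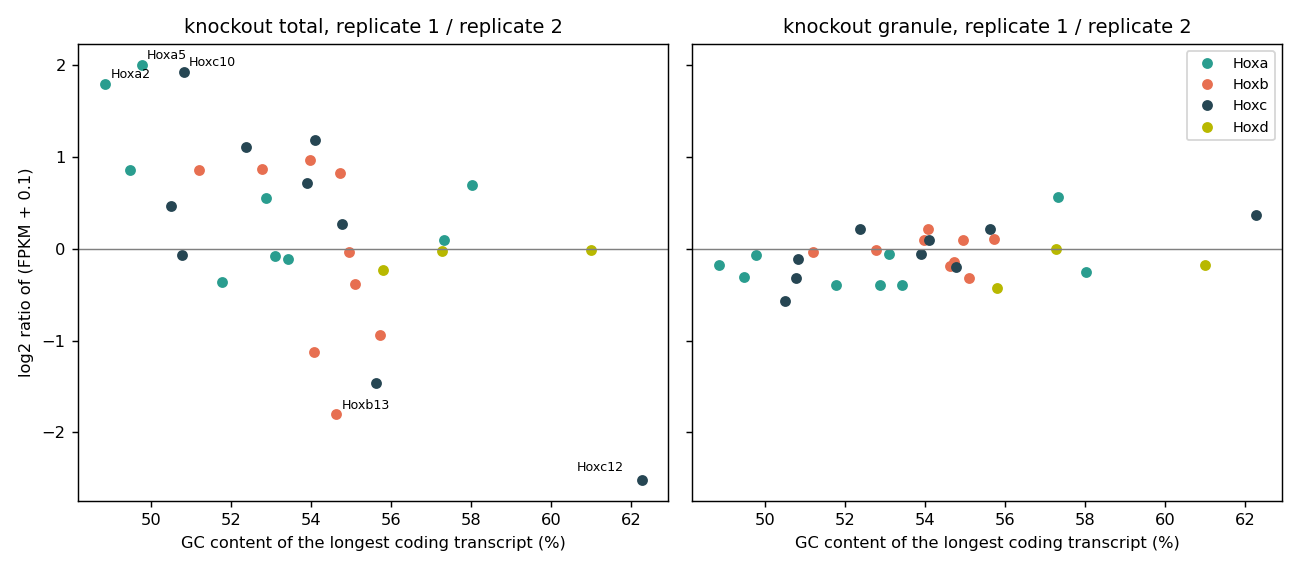
Log2 ratio of replicate 1 to replicate 2 for 30 of the 31 tested Hox genes against the GC content of the longest coding transcript in percent, in knockout total (left) and knockout granule (right), coloured by cluster. Ratios were taken after adding 0.1 FPKM to each value. In knockout total the points run from 2.001 for Hoxa5 to −2.52 for Hoxc12, and in knockout granule they stay between −0.57 and 0.56.

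How far 2 libraries differed over the Hox genes was set beside other genes, in log2 of FPKM plus 0.1. Members and other genes were kept if they reached 1 FPKM in any library. Hoxa2 and Hoxa9 did so only in knockout total replicate 1, so they entered through that library and help set its differences. Over the 22 members that reached 1 FPKM in any library, the log2 difference between replicates had a median size of 0.08 to 0.21 in the 3 groups other than knockout total, where that of 12416 other genes was 0.11 to 0.31. Between genotypes within a fraction, leaving out knockout total replicate 1, it was 0.38 to 0.59 over the members and 0.27 to 0.58 over the other genes. Between that library and the control total libraries 1 and 2 it was 1.39 and 1.29 over the members and 1.09 and 0.846 over the other genes. Between genotypes the members thus differed by more than between these replicates, in a range that overlapped that of the other genes.

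Among factors that work with Hox proteins, all 9 TALE cofactors (Meis, Pbx and Pknox genes, whose proteins bind DNA together with Hox proteins) were on in every library. None was called between knockout and control in either fraction, against 0.412% of all genes in total RNA and 9.45% in the granule fraction. Pknox2 was lower on the mean of both fractions (log2 −0.90, adjusted p = 0.049), against 2.79% of all genes. Of 23 Polycomb genes, 21 were on in every library. Between knockout granule and control granule 1 of the 23 was called, against 9.45% of all genes. It was Phf19, an accessory subunit of Polycomb complex 2 (log2 −1.39, adjusted p = 0.047). None was called in total RNA, against 0.412% of all genes. On the mean of both fractions Mtf2 was higher (log2 0.93, adjusted p = 0.04999), against 4.9% of all genes. Phf19 was lower there (log2 −1.14, adjusted p = 0.034), against 2.79%. In the granule fraction of control cells, Suz12 (log2 2.15, adjusted p = 0.032), Mtf2 (log2 2.77, adjusted p = 0.0077) and Aebp2 (log2 1.67, adjusted p = 0.031) were higher than in total RNA. These 3 of 23 stood beside 5.89% of all genes called higher, and no Polycomb gene was called lower, against 4.17%. Of 12 Trithorax genes and Hox activators 9 were on in every library. Cdx1, Cdx2 and Cdx4, activators of Hox genes in the early embryo, were off in all. No gene of the list was called between genotypes, against 0.412% of all genes in total RNA and 9.45% in the granule fraction.

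Retinoic acid is a signal that switches on anterior Hox genes, and the genes that make, carry, sense and degrade it were looked at for that reason. Of 16 pathway genes tested, 2 were lower in knockout total than in control total, against 0.137% of all genes: Stra6, the receptor that takes up retinol (log2 −3.85, adjusted p = 0.024), and Crabp1, which binds retinoic acid in the cell (log2 −1.998, adjusted p = 0.041). These 2 calls did not hold in every fit. With the replicate number added to the fit, or with only the groups compared, no gene at all was called between knockout and control total RNA. In the granule fraction 5 of the 16 were higher in knockout cells, against 5.79% of all genes, and 1 was lower, against 3.66%. Stra6 (log2 2.22, adjusted p = 0.015), Crabp1, Cyp26a1 and Dhrs3 were among the higher ones, and Aldh1a1, an enzyme that makes retinoic acid, was the lower one (log2 −2.42, adjusted p = 0.020). Stra6 and Crabp1 thus had opposite signs in the 2 fractions, a difference that passed the interaction test (adjusted p = 0.027 and 0.039). The anterior members Hoxb1, Hoxb2, Hoxb3 and Hoxa3 were off in every group. Hoxa2 passed 1 FPKM in knockout total replicate 1 only. In each fraction its knockout libraries lay above both control libraries. It was not called (log2 2.01 in total RNA and 1.29 in granule, edgeR adjusted p = 0.16 and 0.25). Hoxb2 lay lower in knockout total (log2 −0.77) and Hoxb3 in knockout granule (log2 −0.90), also without a call. The part of retinoic acid in these levels was not tested.

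Other transcription factors that mark body regions were looked at beside the Hox genes. Of 24 limb and trunk factors, 8 were on in every library, among them Tbx15, Prrx1, En1 and Emx2, and 11 were off in every library, among them Tbx5, Tbx4 and Pitx1, which mark the forelimb and the hindlimb. Of 16 head factors, 12 were off in every library. Between knockout and control granule, 3 of the 18 limb and trunk factors tested and 1 of the 10 head factors were called, against 9.45% of all genes: Tbx2 was higher (log2 2.98, adjusted p = 0.0088), and Sp8 (log2 −2.66, adjusted p = 0.0086), Msx2 (log2 −2.01, adjusted p = 0.012) and Dlx2 (log2 −1.80, adjusted p = 0.040) were lower. These lists were described by their counts only.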

How the data were processed

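The authors' deposited table holds unnormalized counts for each Ensembl gene, with a column for each of the 8 libraries, and these counts were used as they stand. The submitters' processing notes name STAR, DESeq2, GRCm38 and mm10; the counting program, its strand setting and the annotation release are not given in the sources used here, so reads of overlapping and antisense genes may not be told apart. Names, coordinates, exon lengths and GC content came from GENCODE M21 (GRCm38), to which 37693 of 39017 identifiers matched; exon overlaps were found with bedtools 2.31.1.

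Counts were tested in R 4.3.3 with edgeR 4.0.16 (quasi-likelihood, robust, TMM, its expression filter, 1 mean for each of 4 groups, all 8 libraries, 4 residual degrees of freedom) in 6 comparisons, with Benjamini-Hochberg adjustment over 18952 genes. The code was checked on simulated data. FPKM values were computed here from the counts, per kilobase of union exon length. Alternatives were DESeq2 1.42.0 (median-of-ratios factors, Wald test), voom in limma 3.58.1 with library weights, no filter, a replicate block, a GC trend removed (lowess, span 0.3), only the groups compared, each library left out, and, for the on state, thresholds of 0.5 and 3 FPKM, another length and unscaled library sizes.

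Members called in any comparison, the 3 highest members of each cluster and the highest-numbered active member are given library by library. The members and gene lists were chosen with earlier results of these data known. The values of 1 member and of a few listed genes are not reported here; counts over the members and lists include them.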

Additional observations from a re-analysis of the deposited data

How the results depend on the processing

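The 15 members on in every group were also on with unscaled library sizes; leaving out a library cannot turn them off. At a threshold of 0.5 FPKM 19 were on in every group, at 3 FPKM 9, and with the longest coding transcript as the length 18. The number of members with a group-dependent state, 5, became 3, 2 and 3 under these settings and 5 to 7 with a library left out, so the state of members near 1 FPKM depends on the threshold and the length.

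Counts of called members moved far more, and the share of all genes called (in brackets) moved with them. With libraries left out in turn they ran from 0 to 20 for knockout against control in total RNA, 0 to 14 in the granule fraction, 0 to 18 for the mean of both, 0 to 8 for granule against total in control cells, 0 to 19 in knockout cells and 0 to 19 for the interaction (between 0% and 48.2% over all these fits). In total RNA, with 0 calls in the fit reported, 10 members were called with no expression filter (11.2%), 11 by DESeq2 (13.2%) and 2 with the GC trend removed (4.07%). In the granule fraction the 4 calls became 17 with voom and library weights (55.2%), 18 with only the groups compared (57.3%) and 1 with the replicate block (3.54%). The 4 calls on the mean of both fractions became 8 by DESeq2 (17%), 7 with the GC trend removed (19.8%) and 0 with the replicate block (3.04%). The 1 call in control cells became 2 with no filter (13.2%), 4 with voom (39.3%), 2 with the GC trend removed (20.1%), 5 with only the groups compared (42.4%) and 0 with the block (3.07%). The 7 calls in knockout cells became 3 with voom (5.69%), 0 with only the groups compared (0%) and 4 with the block (10%). For the interaction, with 0 calls, it was 8 with no filter (11.5%), 7 by DESeq2 (14.5%) and 6 with the GC trend removed (9.49%). Some of these fits held fewer libraries, and the cause of the moves was not tested.

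The replicate number is not a pairing in the labels, and same-numbered libraries did not deviate together (correlations of −0.254 to 0.095 between groups), so fewer calls under the block are not read as a weaker effect. Of 236 alternative values for the 16 single-gene calls, none changed sign, 134 stayed past the threshold and 102 did not. With 2 libraries a group, an uncalled member is not shown to be unchanged.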
